A study of Caenorhabditis elegans with 2 samples.

Results

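From the insulin and TOR signalling pathway, 10 genes of the 19985 protein-coding genes in the annotation were followed through the binding sites recorded for the W03F9.2 protein of Caenorhabditis elegans. They were taken by name: daf-2, age-1, pdk-1, akt-1, akt-2, sgk-1, daf-16, daf-18, rict-1 and let-363, and each matched 1 annotated gene. The study used ChIP-seq, in which chromatin bound by a protein is pulled down and its DNA sequenced. Its single group is strain OP215, which carries the mutant allele unc-119(ed3) and the integrated transgene wgIs215 with an eGFP-tagged copy of W03F9.2. Whole animals of both sexes were collected at the L4 to young adult stage in 2 biological replicates. All values therefore average over every tissue of the animal, and binding in a few cells cannot be told apart from weak binding in many. The labels name W03F9.2 as the antibody and elsewhere mention the eGFP fusion, which leaves it unclear what the antibody recognised. No untagged group is among the samples, so no comparison between conditions was possible.

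Insulin-like peptides bind the receptor DAF-2, which activates the lipid kinase AGE-1. The lipid that AGE-1 makes recruits the kinases PDK-1, AKT-1 and AKT-2, and the lipid phosphatase DAF-18 removes it. AKT kinases keep the FOXO transcription factor DAF-16 out of the nucleus, so that lower insulin signalling lets it act on stress, metabolic and lifespan genes. TOR, encoded by let-363, is a kinase that couples nutrients to growth. With the Rictor protein RICT-1 it forms a complex that acts through the kinase SGK-1. The pathway is known in worms for its control of dauer arrest, fat storage and lifespan.

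A promoter here covers the 1000 bp before a gene's annotated start and the first 200 bp after it, and positions are counted from that start, with negative values upstream. A binding site was placed by its summit, the point the peak caller reported. Of the 10 genes, 4 had a promoter summit in the optimal set, the 2409 peaks that the authors kept after their reproducibility step. They are daf-2, akt-2, daf-18 and rict-1, which encode the receptor, a kinase of the AKT pair, the lipid phosphatase and Rictor. Among all protein-coding genes the share was 11.7%. A gene-body summit of the same set lay in pdk-1 and in daf-16. The lipid kinase gene age-1 had no summit anywhere in its promoter or body, even among the 30000 entries of the list from both replicates together (the pooled list), which runs far below the threshold. The optimal set holds exactly the 2409 entries of highest signal in the pooled list. A peak of the set therefore need not rank within the top 2409 of each replicate. The count of 4 rests on the window and on replicate 2. It was 2 (daf-2 and rict-1) with a narrower promoter of 500 bp before and 100 bp after the start, against 9.52% of all genes. It was also 2 (akt-2 and rict-1) in the 2409 strongest entries of replicate 1 alone, against 10.9%, and 2 (daf-2 and akt-2) when each summit counted only for the nearest gene start, against 8.17%.

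The sequences at 6 of these sites are shown because they let the strong and weak sites of the pathway be read side by side. They comprise the optimal-set peaks of akt-2, rict-1, daf-18, daf-2 and pdk-1 and the weaker promoter entry of akt-1. Each is the 201 bases centred on the summit of the pooled list, read 5′ to 3′ on the gene's own strand from the RefSeq copy of the WBcel235 assembly. Capitals mark matches, on either strand, to 5 words of 6 bases. GAGAGA is the most frequent of these and AGAGAG is the same repeat shifted by a base. The others are AGAGAC, then CGTCTC, which overlaps it when read on the other strand, and last ACGCAG, which has no such repeat. The words overlap one another in many windows. They are the ones whose share of windows differed most between the 2389 nuclear optimal-set peaks and the 10000 weakest pooled entries, and they were chosen after the data were seen.

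The akt-2 window is chrX:14146902-14147102 on the plus strand, rict-1 chrII:13117207-13117407 on the minus strand, daf-18 chrIV:425709-425909 on the minus strand, daf-2 chrIII:3040836-3041036 on the minus strand, pdk-1 chrX:1323138-1323338 on the plus strand and akt-1 chrV:10248572-10248772 on the plus strand.
akt-2: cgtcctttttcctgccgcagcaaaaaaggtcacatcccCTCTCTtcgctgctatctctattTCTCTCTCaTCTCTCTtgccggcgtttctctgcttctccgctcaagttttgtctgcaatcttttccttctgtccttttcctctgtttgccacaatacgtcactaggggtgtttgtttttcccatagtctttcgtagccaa
rict-1: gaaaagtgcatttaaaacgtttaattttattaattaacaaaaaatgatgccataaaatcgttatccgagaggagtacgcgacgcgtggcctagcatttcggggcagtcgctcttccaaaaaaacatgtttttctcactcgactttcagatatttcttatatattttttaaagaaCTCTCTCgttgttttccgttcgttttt
daf-18: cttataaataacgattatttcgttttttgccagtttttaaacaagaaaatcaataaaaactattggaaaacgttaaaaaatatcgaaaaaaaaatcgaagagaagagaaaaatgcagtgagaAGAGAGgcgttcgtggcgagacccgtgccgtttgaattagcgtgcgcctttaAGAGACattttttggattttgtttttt
daf-2: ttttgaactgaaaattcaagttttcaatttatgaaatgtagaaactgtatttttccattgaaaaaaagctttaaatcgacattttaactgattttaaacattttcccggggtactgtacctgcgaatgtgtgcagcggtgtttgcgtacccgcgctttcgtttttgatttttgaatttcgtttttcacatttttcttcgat
pdk-1: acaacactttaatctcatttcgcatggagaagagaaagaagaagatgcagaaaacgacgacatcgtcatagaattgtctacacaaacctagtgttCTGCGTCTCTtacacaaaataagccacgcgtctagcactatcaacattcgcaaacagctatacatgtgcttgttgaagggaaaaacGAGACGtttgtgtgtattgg
akt-1: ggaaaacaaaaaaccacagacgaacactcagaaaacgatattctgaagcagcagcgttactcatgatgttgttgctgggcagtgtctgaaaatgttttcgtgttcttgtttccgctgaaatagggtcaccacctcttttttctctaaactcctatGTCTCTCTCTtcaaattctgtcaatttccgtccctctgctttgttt

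In the pdk-1 window a run of 10 marked bases, CTGCGTCTCT, begins at -5 from the summit and joins 3 of the words. A second copy of 1 of these, CGTCTC on the other strand, begins 81 bp downstream. The akt-2 window holds 21 marked bases in 3 runs of CT repeats, which start at -62, -39 and -30 from the summit. In daf-18 they are 2 separate words 22 and 74 bp downstream, and in rict-1 a single run of 7 bases 74 bp downstream. The daf-2 window holds none of the 5 words, although its peak is in the optimal set. The same is true of the optimal-set peak of daf-16, whose window is not printed, so 4 of the 6 optimal-set windows of the pathway genes hold at least 1 word. The window of the strongest sgk-1 entry, outside the optimal set, also holds none. The akt-1 window holds 3 of them in a run of 10 bases, although its entry ranks far lower. The window of the still weaker let-363 promoter entry (rank 9573), which is not printed, also holds 3, in a run of 8 bases.

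The most frequent word, GAGAGA, was present in 33.1% of optimal-set windows and in 9.65% of windows at the weakest entries. ACGCAG was present in 21.3% and 3.33%. At least 1 of the 5 words was found in 53.3% of optimal-set windows and in 19.9% of the others. GC content moved with the same split, with a median of 39.3% in optimal-set windows and 30.8% at the weakest entries, and its part in these shares was not tested. The members' windows ranged from 32.8% GC at daf-2 and daf-18 to 46.8% at akt-2, among those in the optimal set.

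Signal is the authors' own value for the strength of each peak, in the units of their caller. Each list has its own scale, with a median of 8.67 in replicate 1, 10.4 in replicate 2 and 16.03 in the pooled list, so replicates are compared by rank, with rank 1 the strongest. The receptor gene daf-2 (chromosome III, 2994514 to 3040846, minus strand) had the weakest of the 4 promoter peaks in the optimal set. Its summit lay at -90 bp, in a peak from 3040761 to 3041110. The signal was 17.7 in replicate 1 and 38.5 in replicate 2, with ranks of 3617 and 1674, and 53.2 in the pooled list at rank 2060. Only replicate 2 therefore placed it within its own 2409 strongest entries. Of the 2331 genes with an optimal-set promoter summit, 91% had a higher signal than daf-2. No other protein-coding gene has its promoter there.

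Among the kinases, akt-2 (X, 14147700 to 14152070, plus strand) had the strongest site. The peak, from 14146827 to 14147176, was high in both replicates, with a signal of 50.1 at rank 364 in replicate 1 and 57.6 at rank 695 in replicate 2. In the pooled list it had a signal of 100.5 and rank 566. Its summit lay at -698 bp, and no other protein-coding promoter holds it. The related gene akt-1 (V, 10248905 to 10252845, plus strand) had only weak entries. Its signals were 13.7 in replicate 1 (rank 6140) and 16.43 in replicate 2 (rank 7077), and 22.4 in the pooled list (rank 8347). The replicate entries lay at different places, at -157 bp in replicate 1 and at -924 bp in replicate 2. The pooled entry lay at -233 bp, with a second pooled entry of 20.4 (rank 9802) at -924 bp. The 2 AKT genes thus stood on opposite sides of rank 2409 in both replicates and in the pooled list.

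The phosphatase gene daf-18 (IV, 420011 to 425177, minus strand) had a promoter peak from 425634 to 425983 with a pooled signal of 85.1 at rank 816. The replicates ranked it differently. The signal was 18.3 in replicate 1, at rank 3399, and 62.8 in replicate 2, at rank 564. The log2 ratio of replicate 2 to replicate 1 was 1.78, against a median of 0.66 and quartiles of 0.26 and 1.06 over the 2375 optimal-set peaks matched in both lists. The summit lay at -632 bp from daf-18 and at -359 bp from garr-1, which starts 991 bp away on the other strand. It is therefore nearer to garr-1, and the lists do not say which gene it serves.

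The Rictor gene rict-1 (II, 13098239 to 13116810, minus strand) had the strongest promoter peak of the 10 genes in the pooled list and in replicate 1, from 13117132 to 13117481. In replicate 2 the entries of daf-18 and akt-2 ranked above it. Its signal was 60.7 in replicate 1 (rank 209) and 51.6 in replicate 2 (rank 914), and 113 in the pooled list (rank 421). Both replicates placed it within their top 2409, and 24.3% of genes with an optimal-set promoter summit had a higher signal. The summit lay at -497 bp from rict-1 and at -176 bp from gfm-1, a gene on the other strand for a mitochondrial translation elongation factor. The 2 starts are 673 bp apart. As at daf-18, the nearer start is that of the partner gene. Over all 2331 genes with an optimal-set promoter summit the median position was -235 bp, with quartiles of -396 and -136 bp, so the summits of akt-2, daf-18 and rict-1 lay farther upstream than the outer quartile and that of daf-2 nearer than the inner one.

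**Figure D1:**
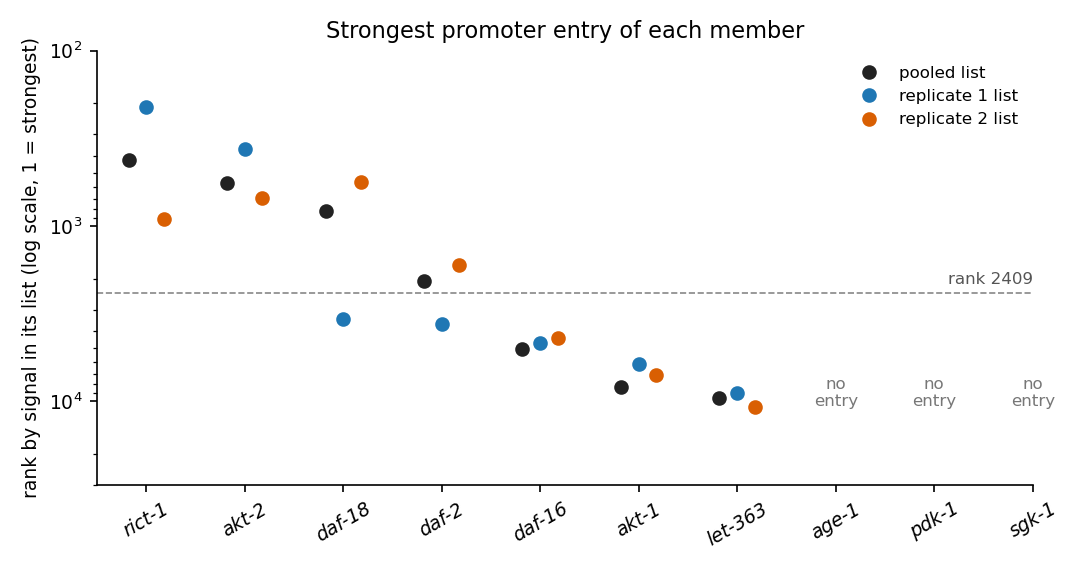
Rank by signal of the strongest promoter entry of each gene (log axis, 1 is the strongest) in the pooled list and in each replicate list; the dashed line is rank 2409, the size of the optimal set. Both replicates place rict-1 and akt-2 above the line, only replicate 2 does so for daf-18 and daf-2, and age-1, pdk-1 and sgk-1 have no promoter entry in any list.

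Of the 6 optimal-set peaks, 2 (those of akt-2 and rict-1) were overlapped by an entry among the top 2409 of both replicates. Over the whole optimal set that share was 62.8%. The peaks fell on both sides of the general offset between replicates. The log2 ratio of replicate 2 to replicate 1 was 1.12 at daf-2 and 0.48 at daf-16, and it was 0.20 at akt-2, -0.23 at rict-1 and -0.87 at pdk-1. Replicate summits lay between 11 bp apart, at daf-16, and 84 bp apart, at daf-2. With 2 replicates and no read depths in the files, no test of these differences was made.

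Promoter entries below the threshold were found for 3 more genes. With them, 7 of the 10 genes had a pooled-list summit in the promoter, against 40.1% of all protein-coding genes. The FOXO gene daf-16 had signals of 15.8 in replicate 1 (rank 4660) and 21.95 in replicate 2 (rank 4372), and 30.4 in the pooled list (rank 5040). The TOR kinase gene let-363 (I, 5245743 to 5263424, plus strand) had signals of 11.3 (rank 8971) and 12.7 (rank 10801), and 20.7 in the pooled list (rank 9573). That pooled entry lay at -835 bp, and a second pooled entry of 20.5 (rank 9761) lay at -41 bp. The strongest replicate entries lay 112 bp downstream of the start in replicate 1 and at -873 bp in replicate 2. The replicate 1 entry thus overlaps the second pooled entry and not the first. Replicate 2 had a further entry at -69 bp (rank 26618). The deposited −log10 q-value was 1.63 at daf-16, 0.76 at akt-1 and 0.62 at let-363 in the pooled list, against 2.41 throughout the optimal set. With genes lacking an entry set to 0, the median pooled signal over the 10 genes was 26.4, and over all protein-coding genes it was 0 because most have no entry.

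**Figure D2:**
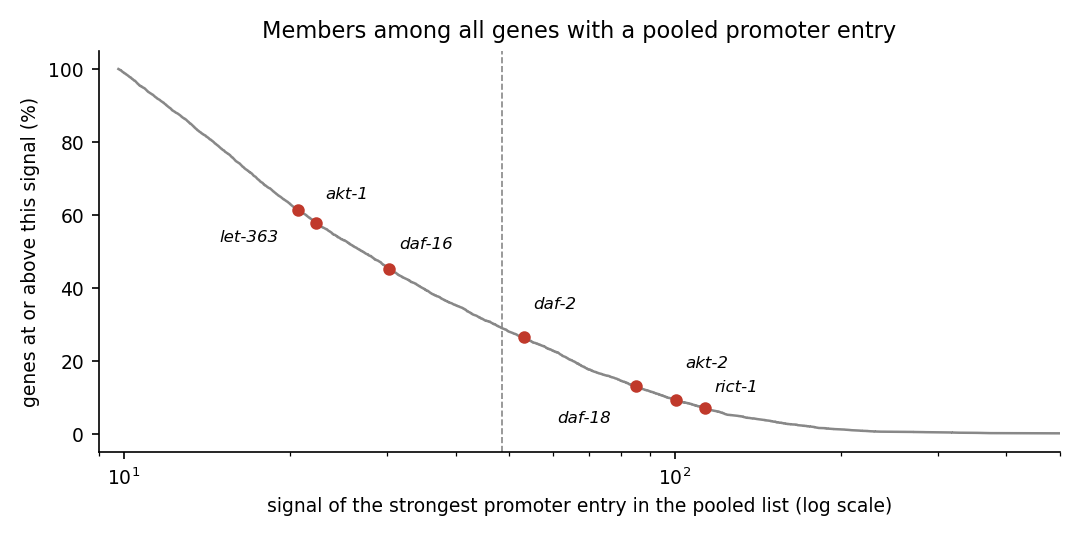
Share of the 8011 genes with a pooled promoter entry whose strongest entry reaches a given signal (log axis); red points are the 7 pathway genes with such an entry and the dashed line is the signal of the last optimal-set peak, 48.5. The 4 genes to the right of the line are daf-2, daf-18, akt-2 and rict-1, from 53.2 to 113, and the other 3 lie between 20.7 and 30.4.

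An optimal-set peak lay just beyond the let-363 window. Its summit was at -1486 bp from let-363 and at -26 bp from mrpl-47, a mitochondrial ribosomal protein gene. It had a pooled signal of 74.4 at rank 1081, and ranks of 1772 and 1266 in the replicates. A wider promoter, of 2000 bp before and 500 bp after the start, would count it for let-363 and give 5 of the 10 genes, against 14.7% of all. For age-1 (II, 11519328 to 11527054) the nearest entry of any strength in the pooled list lay at -7973 bp, a peak of the optimal set at rank 1046.

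For each gene with an optimal-set promoter peak, the gene at another summit with the closest log2 signals over the pooled and both replicate lists was looked up among 5709 genes present in all 3. It was dars-1 for daf-2 (54.5 in the pooled list, 17.5 in replicate 1 and 38.0 in replicate 2) and ucr-2.1 for akt-2 (101, 52.0 and 57.5). For daf-18 it was rnp-2 (82.4, 18.5 and 65.0), and for rict-1 it was rad-54.L2 (109, 61.3 and 52.7). The Euclidean distances were between 0.04 and 0.07 on the log2 scale.

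Inside genes, the kinase gene pdk-1 (X, 1321344 to 1327986, plus strand) held the strongest site in the pooled list and in replicate 1. Its peak, from 1323063 to 1323412, lay in an intron 1894 bp downstream of the start, with no other annotated gene within 1000 bp. The signal was 43.4 in replicate 1 (rank 513) and 23.7 in replicate 2 (rank 3859), and 70.8 in the pooled list (rank 1172). Here it was replicate 1 that ranked the site high, the reverse of daf-18, and in replicate 2 body entries of let-363, daf-16 and daf-2 ranked above it. Neither the promoter of pdk-1 nor another of its transcript starts held an entry.

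The gene body of daf-16 (chromosome I, 10750498 to 10776703, plus strand) held the last peak of the optimal set. It ranked 2409 with a signal of 48.5, and the next pooled entry, outside the set, had 48.46. Its ranks were 3438 in replicate 1 (signal 18.2) and 3459 in replicate 2 (signal 25.3), outside the top 2409 of both. This intronic summit lay 2678 bp downstream of the start, within the noncoding RNA gene H36N01.3 and 36 bp from that gene's start on the other strand. A further 3 intronic entries of daf-16 lay shortly below the threshold. They had pooled signals of 43.5 (rank 2870), 42.2 (rank 3011) and 41.1 (rank 3161), at 7795, 17013 and 1674 bp downstream. All 3 were overlapped by an entry of each replicate list. The one at 1674 bp reached 39.2 (rank 1634) in replicate 2, with the summit at 1669 bp. Replicate 1 had no summit as close. Its overlapping entries had 14.3 (rank 5692) with the summit at 1357 bp and 11.4 (rank 8839) with the summit at 1896 bp.

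Optimal-set body summits were found in 2 of the 10 genes, against 2.06% of all genes, and pooled-list body summits in 8 of the 10, against 31.4%. Counting promoter or body, 9 of the 10 genes had a pooled entry and 50.7% of all genes did. The 10 genes are long, with a median length of 7504 bp against 2026 bp over all genes, and the part of length in these shares was not tested. Per 10 kb of gene body, they held 3.52 pooled summits against 2.56 over all genes, and 2.59 without daf-16. Of their 50 pooled body summits, 43 lay in introns and 7 in exons. The same split was not computed over all genes, so it shows no preference for introns.

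Most of the pooled body summits belong to 3 long genes, daf-16 with 20, daf-2 with 15 and let-363 with 8. The strongest daf-2 body entry, in an intron 3206 bp downstream, had a pooled signal of 47.3 at rank 2520, just outside the optimal set. Its signals were 21.2 (rank 2512) in replicate 1 and 27.4 (rank 3021) in replicate 2. The strongest let-363 body entry, 16049 bp downstream, had 38.0 at rank 3538. It ranked 1539 with a signal of 40.2 in replicate 2 but 22863 with a signal of 6.62 in replicate 1. In the 2409 strongest entries of replicate 2 alone, the genes with a body summit were daf-16 and let-363, against 1.99% of all genes. In those of replicate 1 alone they were pdk-1 and daf-16, against 2.18%. The daf-16 sites differed, with the summit 7820 bp downstream in replicate 1 (rank 2133) and 1669 bp downstream in replicate 2 (rank 1634). Neither is the optimal-set peak at 2678 bp.

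**Figure D3:**
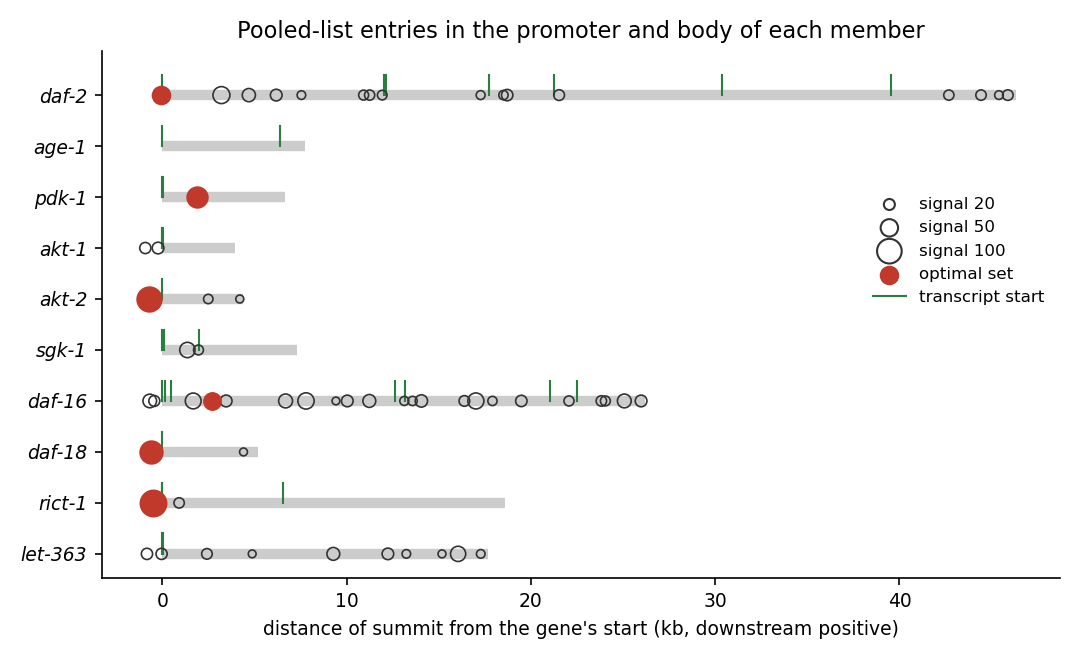
Pooled-list entries along each of the 10 genes, by distance of the summit from the gene's start (kb, downstream positive); circle area follows signal, filled red circles are optimal-set peaks, grey bars are the gene bodies and green ticks the annotated transcript starts. The optimal-set peaks of daf-2, akt-2, daf-18 and rict-1 lie upstream of or at the start, those of pdk-1 and daf-16 inside the gene, and age-1 has no circle.

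Several of these genes have further transcript starts inside the gene, and 7 of the 50 body summits lay in the promoter window of such a start. That share was not computed over all genes. The clearest case was sgk-1 (X, 16254842 to 16262122, minus strand), the kinase gene downstream of Rictor, whose first promoter was empty. Its entry 1358 bp downstream of the first start lay at -636 bp from the start of transcript W10G6.2a.2. The pooled signal was 38.6 (rank 3448), with 16.37 in replicate 1 (rank 4312) and 15.6 in replicate 2 (rank 7671). A second, weaker entry lay at -33 bp from the same start, with a pooled signal of 16.07. In daf-2, 3 pooled entries with signals from 12.98 to 17.1 lay in the windows of inner starts, and in daf-16 there were 2, with 13.3 and 16.6. No optimal-set peak of the 10 genes lay at an inner start. With all transcript starts counted, 4 of the 10 genes still had an optimal-set promoter summit, against 12.2% of all genes. A pooled one was found in 8, against 42.4% of all genes, sgk-1 being the addition.

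Words associated with DAF-16 or bound by E-box factors, which include the autophagy regulator HLH-30, were searched in the 1201-base promoters, on both strands. The DAF-16 binding element GTAAACA was found in 2 of the 10 promoters, daf-2 and daf-16, and in 15.1% of all promoters. The DAF-16 associated element CTTATCA was found in 5 (daf-2, pdk-1, sgk-1, daf-16 and rict-1) and in 23.7% of all. The E-box CACGTG was found in 3 (akt-2, daf-18 and let-363) and in 18.4% of all. Within 201 bases around optimal-set summits the shares were 4.35%, 4.98% and 6.36%. These windows are much shorter than the promoters, so their shares cannot be set against the promoter shares. The daf-2 match to GTAAACA began at -371 bp, with its middle at -278 bp from the W03F9.2 summit, and that of daf-16 began at -427 bp, with its middle 259 bp downstream of the summit. Of the promoters with a pooled entry, that of let-363 had the match closest to its summit, a CACGTG with its middle at -92 bp from it.

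Other genes of the pathway were described from a list sorted by role, 165 genes that exclude the 10. Of these, 36 (21.8%) had an optimal-set promoter summit and 97 (58.8%) a pooled one, against 11.7% and 40.1% of all genes. The summit was shared with another protein-coding gene in 16 of the 36, and 19 of the 36 had an overlapping entry in the top 2409 of both replicates. Among the insulin-like ligands, 1 of 39 had an optimal-set summit, ins-39, with signals of 103 in both replicates and 200.7 in the pooled list. Values in brackets for the other genes are pooled signals. TOR complexes and their regulators had 6 of 17. The highest were rheb-1 (167), the GTPase that activates TOR, ragc-1 (137), a Rag GTPase that reports amino acids to TOR, and lmtr-3 (118), a subunit of the complex that anchors the Rag GTPases. Those 3 summits are shared with spk-1, Y24F12A.1 and atp-5. The Raptor gene daf-15 (59.4), which encodes the counterpart of Rictor in the other TOR complex, had a summit 8 bp downstream of its start that no other promoter holds. The last 2 were ruvb-1 (59.1) and tct-1 (54.0), whose summits are each shared with another protein-coding gene.

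Downstream of TOR, autophagy genes had 10 of 25 and translation genes 5 of 10. The strongest autophagy sites were at lgg-2 (114), epg-8 (86.4), lgg-1 (83.9), atg-9 (81.5), atg-18 (67.8) and atg-4.1 (67.0), and none of these 6 is shared. Both lgg genes encode ubiquitin-like proteins of the autophagosome membrane. The translation genes were eef-2 (212), rps-6 (104), ife-3 (68.9), ifg-1 (66.9) and efk-1 (52.6). These encode an elongation factor, a ribosomal protein that in mammals is phosphorylated downstream of TOR, an initiation factor that binds the mRNA cap, its scaffold partner and the kinase of the elongation factor. The group listed as DAF-16 cofactors and regulators had 5 of 27. They were the 14-3-3 genes ftt-2 (97.1) and par-5 (50.9), the DAF-16 deubiquitinase gene math-33 (86.4), the nuclear cofactor gene hcf-1 (67.2) and hsb-1 (64.9). The gene hsb-1 stands there by the list only, and an action on DAF-16 was not tested. Genes known as DAF-16 targets had 7 of 28, led by sip-1 (117), hsp-70 (61.8), gpd-2 (57.5), hsp-16.41 (52.0), hsp-16.2 (50.4) and icl-1 (49.4). The energy sensor AMPK and its activators had 1 of 12, aakb-2 (64.9), and the partners placed near the receptor had 1 of 7, dnc-2 (50.99), a dynactin subunit. The summits of eef-2, rps-6, ifg-1, math-33, hcf-1, hsb-1, sip-1, icl-1, aakb-2 and dnc-2 are each shared with another protein-coding promoter. The hsp-16.2 summit also lies in the promoter of hsp-16.41, which has a stronger summit of its own. Among optimal-set peaks above the set's median signal of 69.8, 13 of the 165 genes (7.88%) had a promoter summit, against 7.11% of all genes, a smaller difference than over the whole set.

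**Figure D4:**
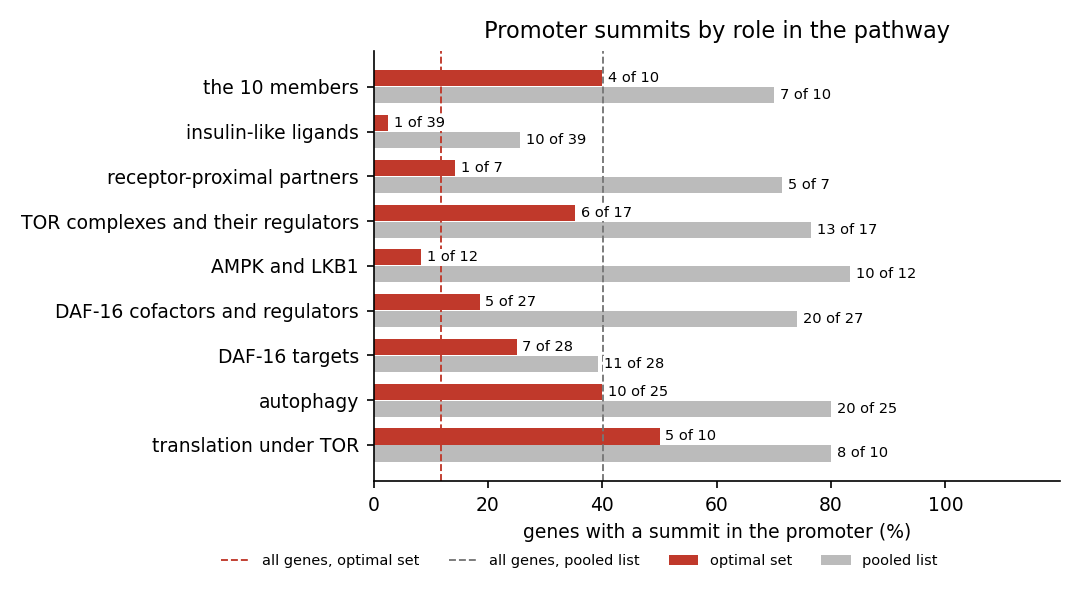
Share of genes with a promoter summit in the optimal set (red) and in the pooled list (grey) for the 10 pathway genes and for each role of the wider list, with counts beside the bars; dashed lines are the shares of all protein-coding genes, 11.7% and 40.1%. In the optimal set, insulin-like ligands (1 of 39) and the AMPK group (1 of 12) end left of the dashed line and the other roles right of it.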

How the data were processed

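Peak lists were used for 1 group of 2 biological replicates. Per the notes deposited with the files, the authors started from the aligned reads of both replicates and of a control. No aligner, peak caller or setting is named in the labels or the notes, and read depth is unknown. The deposited signal and −log10 q-value of each peak are the authors' values in their caller's units. The ce11 lists were used (optimal set, pooled list and 1 list per replicate); the ce10 lists were not used here. Every entry lay within the WBcel235 chromosomes, and gene starts came from Ensembl release 115. In 88.2% of optimal-set entries, whose median width was 350 bp, the summit sat within 1 bp of the midpoint. How precisely a summit marks a binding site cannot be judged from these lists.

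Summits were assigned to every gene whose promoter window held them, and elsewhere to gene bodies, in Python 3.11.15 with NumPy 2.4.6. Replicate values in promoters are the strongest summit in the window of each list; those of optimal-set and gene-body peaks are the strongest entry overlapping by at least 1 bp. No test was run: the genes are described by counts beside the same share of all protein-coding genes. The assignment was tested on simulated data. Names were limited to the 10 genes, genes sharing their summits, the closest gene in signal, and at most 6 genes per role of the wider list, from which dod-8 matched no annotated name; mrpl-47 and H36N01.3 were added after their values were seen. The members and lists were chosen with earlier results of these data known.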

Additional observations from a re-analysis of the deposited data

How the results depend on the processing

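Of the 10 genes, 4 had an optimal-set promoter summit. The count was 2 with the narrow promoter and 2 with each summit counted for the nearest start only, and from 2 (without replicate 2) to 4 (without replicate 1) in 1 replicate's own top entries. It stayed within 1.5 times of 4 with the wide promoter, any transcript start, peak overlap in place of summits and the part of the set above its median signal. Optimal-set gene-body summits went from 2 genes to 1 in the stricter part above the median signal, which holds fewer peaks. The shares of all genes were 2.06% and 0.796%. The wider list went from 36 of 165 genes (21.8%, against 11.7% of all) to 13 there (7.88%, against 7.11%); the cause of its larger fall was not tested. The counts of genes with pooled-list promoter or gene-body summits kept within 1.5 times of their main value under each alternative. Of the replicate promoter signals, 12 could be matched by overlap with the pooled entry, and all 12 kept their value; the replicate 2 entry of akt-1 and the replicate 1 entry of let-363 had no such match. Read depth is unknown, so the weakest entries cannot be separated from background. No paired analysis was possible because the series has a single group.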
